A study of Mus musculus with 3 samples.

Results

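The genes described here were 9 members of the CC chemokine system that act on monocytes, eosinophils and related leukocytes, namely the ligands Ccl2, Ccl7, Ccl8, Ccl11, Ccl3, Ccl4 and Ccl5 and the receptors Ccr2 and Ccr1. The rule that picks them names symbols and applies no threshold to measured values, and all 9 of 9 were found among the 32285 genes of the count matrices. The samples were 3 droplet single-cell RNA libraries of full-thickness dorsal skin from wild type C57BL/6J mice, labelled female and 8 weeks old. That age is shorter than the irradiation given below, so irradiated skin was taken from older mice. CON skin received no irradiation, UV skin was exposed on alternate days over 12 weeks to UVA at 0.60 mW/cm2 together with UVB at 3.5 mW/cm2, and Rux skin received the same irradiation followed each time by an ointment with 1.5% ruxolitinib, an inhibitor of the kinases JAK1 and JAK2. CON and UV skin received the vehicle of that ointment. Skin was taken 24 hours after the last exposure.

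Chemokines are small secreted proteins that direct the migration of leukocytes through receptors coupled to G proteins, and the CC class is named for a pair of adjacent cysteines near the amino end. Ccl2 and Ccl7 are ligands of Ccr2, the receptor by which classical monocytes leave the marrow and enter tissue. Ccl11, or eotaxin, acts on Ccr3 of eosinophils, Ccl8 of the mouse acts mainly on Ccr8, and Ccl3 and Ccl5 are ligands of Ccr1. In skin these ligands are made by stromal cells and resident macrophages during inflammation.

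The feature that defines the ligands is shown first. Each line below gives 30 bases of the coding sequence of 1 of 6 ligands (GENCODE M21, GRCm38), read 5′ to 3′, with the codons of the adjacent cysteines in capitals.
Ccl2: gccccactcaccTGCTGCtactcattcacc
Ccl7: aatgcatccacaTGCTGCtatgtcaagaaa
Ccl8: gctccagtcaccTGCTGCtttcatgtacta
Ccl11: atcccaacttccTGCTGCtttatcatgacc
Ccl4: cctcccacttccTGCTGTttctcttacacc
Ccl5: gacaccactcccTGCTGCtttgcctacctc
Each of these 6 coding sequences held 1 such pair of codons in frame, and its capitals began at base 94 to 100, counted from the start codon. The ligand genes lie in 2 groups on chromosome 11 (GRCm38). Ccl2, Ccl7, Ccl11 and Ccl8 span 82035571 to 82116799 and Ccl5, Ccl3 and Ccl4 span 83525778 to 83664683. Ccr1 and Ccr2 lie together on chromosome 9, from 123962124 to 124113557. The longest run of identical bases that a ligand transcript shared with any of 34 other genes of the CC family was 23 bases, between Ccl2 and Ccl7. Ccr1 shared a run of 47 bases with Ccr3, 1487 bases before the end of the Ccr1 transcript, while the libraries came from a 3′ kit. Only a read that lies wholly within that run cannot be assigned to either gene.

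Each condition was represented by 1 library, so no test between conditions was possible and no p-value is given. The number of mice behind a library was not given in the sources used here, and every interval below is a 95% interval for counting error only. After filtering, 10777, 10231 and 9299 cells remained in CON, UV and Rux, with medians of 7549, 7669 and 9438 UMIs, where a UMI is a counted RNA molecule. The libraries went against the sex on their labels: RNA of the Y-linked genes Ddx3y, Eif2s3y and Uty was present in all 3 (58.0 to 121 UMIs per 1000000) and Xist stood at 0.0922 to 0.119 on the same scale. Between 28 and 50 cell barcodes were shared by any 2 libraries. Cells were clustered without the CC genes and named from marker genes, so each name ends in "-like": fibroblast (FB), keratinocyte (EPI), lymphatic and vascular endothelial (LEC, VEC), pericyte (PCY), mast cell (MC), myeloid (MYE, with macrophage, MAC, and monocyte, MONO), lymphocyte (LYM) and neutrophil (NEU). No cluster carried the eosinophil name, and the 5 eosinophil markers searched summed to 110, 160 and 112 UMIs in CON, UV and Rux, of which Prg2 held 93, 121 and 72. The eosinophil peroxidase gene Epx had 3, 2 and 2 UMIs. FB-like cells made up 29.9% (29.1 to 30.8) of CON cells, 47.6% (46.6 to 48.6) of UV cells and 49.3% (48.3 to 50.3) of Rux cells. NEU-like cells made up 0.464%, 0.205% and 2.39%.

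Levels are given as CPM, the UMIs of a gene per 1000000 UMIs summed over all cells of a class in a library. Ccl2, the main attractant of classical monocytes, was spread over stroma and macrophages. In FB-like cells it stood at 2294 CPM (2274 to 2315) in CON, 3330 (3311 to 3349) in UV and 4105 (4087 to 4123) in Rux. MAC-like cells held 5714, 3325 and 3729 CPM, PCY-like cells 2765, 906 and 1711, and MC-like cells 2230, 1282 and 1401. MAC-like cells ranked highest in CON. FB-like and MAC-like cells overlapped within counting error in UV, and FB-like cells ranked highest in Rux.

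Ccl7, which shares Ccr2 with Ccl2, was highest in MC-like and MAC-like cells in all 3 libraries. MC-like cells held 5155 CPM (4695 to 5648) in CON, 2604 (2454 to 2762) in UV and 3908 (3756 to 4065) in Rux. MAC-like cells held 5009, 3049 and 3658 CPM, and the intervals of these 2 classes overlapped in CON and in Rux. FB-like cells followed at 1393, 1722 and 2010 CPM. MC-like cells were few (64, 172 and 211) and shallow, with medians of 950, 1237 and 1655 UMIs.

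**Figure D1:**
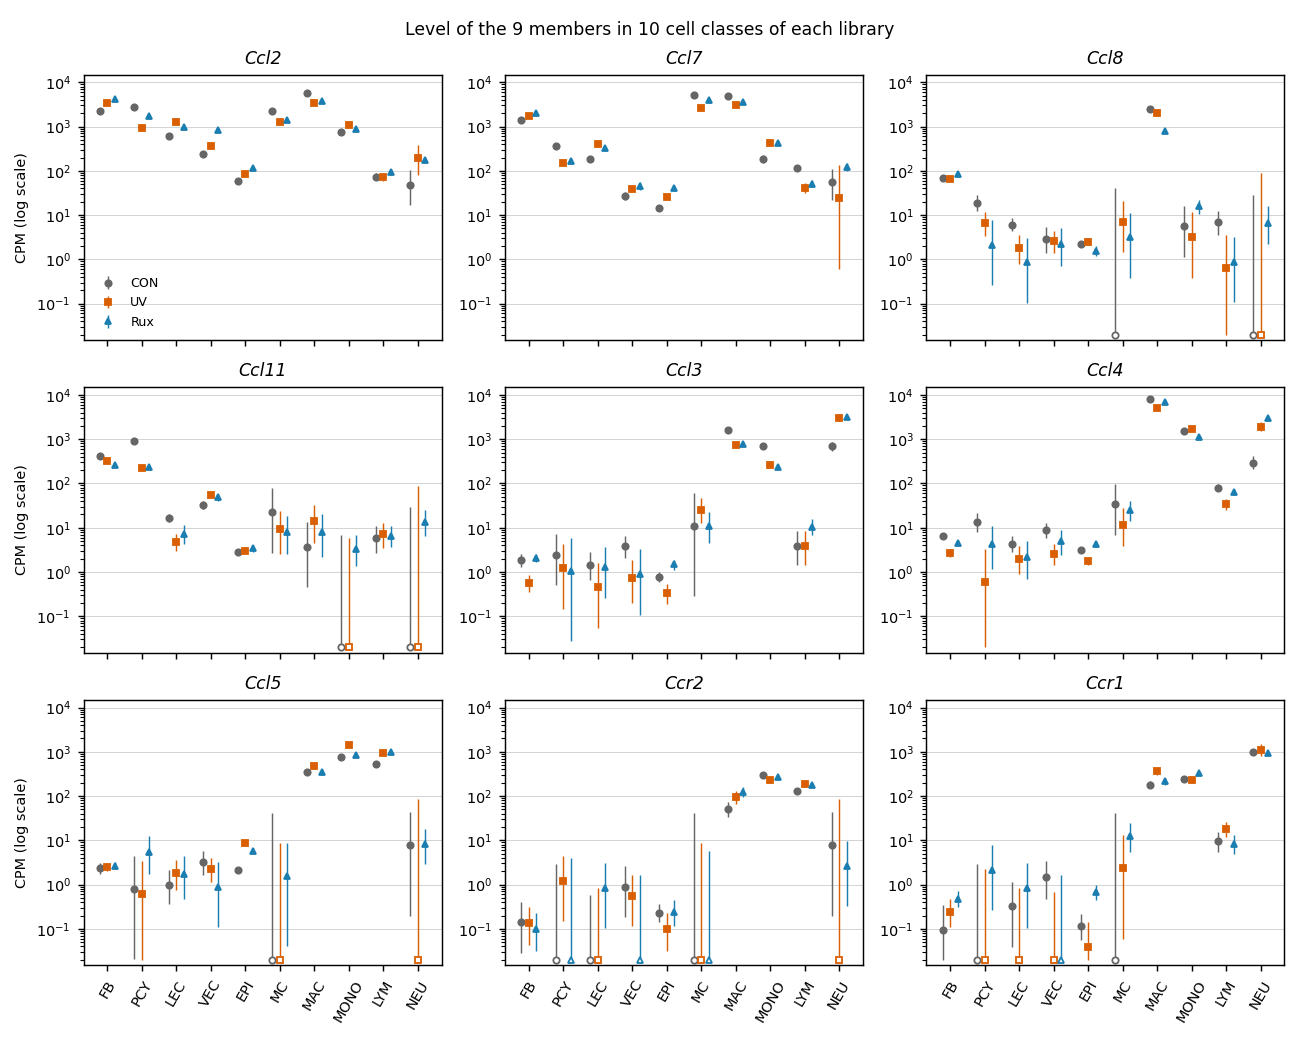
Level of each of the 9 members in 10 cell classes of the CON (grey circles), UV (orange squares) and Rux (blue triangles) libraries, as CPM on a log axis with exact 95% Poisson intervals, and open symbols on the lower edge for 0 UMIs (intervals that reach below 0.02 CPM are cut there). Ccl2 and Ccl7 spread over stromal, mast and macrophage classes, Ccl8 stood highest in MAC-like cells, and Ccr1 and Ccr2 stood highest among the 4 leukocyte classes on the right. NEU-like cells numbered only 21 in UV.

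Ccl8 was a macrophage transcript by level and largely a fibroblast transcript by amount. MAC-like cells held 2509 CPM (2378 to 2646) in CON, 1998 (1854 to 2149) in UV and 793 (716 to 875) in Rux, against 68.9, 66.4 and 87.0 CPM in FB-like cells. Because FB-like cells were far more numerous, they held 42.8%, 67.3% and 85.9% of all Ccl8 UMIs in CON, UV and Rux. MYE-like cells held 40.3%, 20.8% and 8.4%. MONO-like cells, the other large myeloid class, stood at 5.58, 3.21 and 15.8 CPM.

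Ccl11, the eosinophil attractant, was stromal. PCY-like cells held 890 CPM (838 to 944) in CON, 227 (204 to 251) in UV and 231 (201 to 264) in Rux. FB-like cells held 411 (402 to 420), 318 (312 to 324) and 263 (259 to 268). The order of these 2 classes was therefore opposite in CON and UV, and their intervals overlapped in Rux. A smaller class, MP-like cells named from muscle progenitor markers such as Pax7 and Myf5 (151, 40 and 32 cells) held 533 (471 to 601), 710 and 558 CPM, above FB-like cells in all 3 libraries, though from 95 and 83 UMIs in UV and Rux. Among classes of at least 50 cells, VEC-like cells came next in UV and Rux, at 55.1 and 48.2 CPM, and MYE-like cells stayed at 4.93 to 7.87 CPM. In VEC-like cells, 32 of 649 cells held 87.8% of the Ccl11 UMIs in UV, and 12 of 243 held 80.6% in Rux. A VEC-like cluster led by Rgs5 and Abcc9 scored 6.34 for VEC and 5.26 for PCY markers, so pericyte RNA within this class was not separated.

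Ccl3 and Ccl4, the macrophage inflammatory proteins, were leukocyte transcripts. For Ccl3, MAC-like cells held 1599, 734 and 780 CPM, MONO-like cells 694, 258 and 237, and NEU-like cells 686 (550 to 845), 3055 and 3220 (3092 to 3352). The NEU-like value in UV came from 21 cells. For Ccl4, MAC-like cells held 7969, 5114 and 6808 CPM, MONO-like cells 1510, 1736 and 1143, and NEU-like cells 296, 1933 and 2976. FB-like cells were at or below 2.1 CPM for Ccl3 and 6.59 CPM for Ccl4.

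Ccl5, a product of activated lymphocytes and monocytes, stood in MONO-like cells at 764 CPM (692 to 842) in CON, 1410 (1318 to 1506) in UV and 857 (817 to 897) in Rux. αβ T-like cells held 625, 970 and 904 CPM, and these 2 classes overlapped within counting error in CON and Rux. The highest values came from small clusters. NK-like cells (14, 30 and 33 cells) held 6427, 4344 and 5419 CPM, and migratory dendritic-like cells (4, 6 and 8 cells) held 2315, 2866 and 2050. EPI-like cells, a class taken here as background for the leukocyte genes, stood at 2.16, 8.72 and 5.84 CPM.

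The receptors separated by leukocyte type. Ccr2 was highest among the larger classes in MONO-like cells, at 303 CPM (258 to 353) in CON, 231 (195 to 272) in UV and 264 (243 to 287) in Rux. A γδ T-like cluster led by Il17a (33, 24 and 41 cells) stood at 346, 227 and 346 CPM. Ccr1 was highest in NEU-like cells, at 990 CPM (826 to 1178) in CON, 1098 in UV and 931 (863 to 1003) in Rux, while MONO-like cells held 244, 231 and 328 and MAC-like cells 182, 359 and 215. MAC-like cells were above MONO-like cells in UV and below them in Rux, and the 2 overlapped in CON. FB-like cells carried at most 0.14 CPM of Ccr2 and 0.476 CPM of Ccr1.

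Shares of cells with a UMI were compared after each cell was thinned to 2000 UMIs. Among FB-like cells, Ccl2 was seen in 49.6% of CON cells, 65.5% of UV cells and 72.8% of Rux cells (63.6%, 78.4% and 87.5% before thinning). The same shares for Ccl7 were 46.8%, 63.2% and 66.5%. EPI-like cells, set beside them as a class of low Ccl2, gave 8.06%, 12.8% and 17.4% for Ccl2, with medians of 17858 to 21044 UMIs against 6044 to 9818 in FB-like cells. Ccl11 was seen in 36.9%, 34.2% and 32.1% of FB-like cells and Ccl8 in 10.9%, 10.1% and 11.6%. In MYE-like cells Ccr2 was seen in 18.8%, 19.4% and 24.2% and Ccr1 in 18.4%, 26.4% and 30.2%, against 0% for Ccr2 and at most 0.0637% for Ccr1 in EPI-like cells.

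The cells that held the transcripts also differed between libraries. FB-like cells held 63.1% of all Ccl2 UMIs in CON, 82.8% in UV and 88.4% in Rux, and 74.2%, 87.5% and 89.1% of all Ccl7 UMIs. For Ccl11 they held 71.8%, 88.2% and 91.0%. Unnamed clusters held 13.1%, 5.7% and 4.2% of Ccl2 and 12.7%, 4.3% and 4.4% of Ccl11, so part of the difference in shares lay there. Unnamed cluster 3 scored highest for FB markers but had few UMIs per cell. With it added to FB-like cells, chosen after seeing the data, the UV over CON log2 ratios were 0.50 for Ccl2, 0.27 for Ccl7 and -0.46 for Ccl11. Without it they were 0.54, 0.31 and -0.37. MYE-like cells held 84.0% of Ccl3 in CON and 72.5% in UV but 33.9% in Rux, where NEU-like cells held 60.3%. Of the Ccl4 UMIs, NEU-like cells held 0.5% in CON, 1.6% in UV and 21.3% in Rux.

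**Figure D2:**
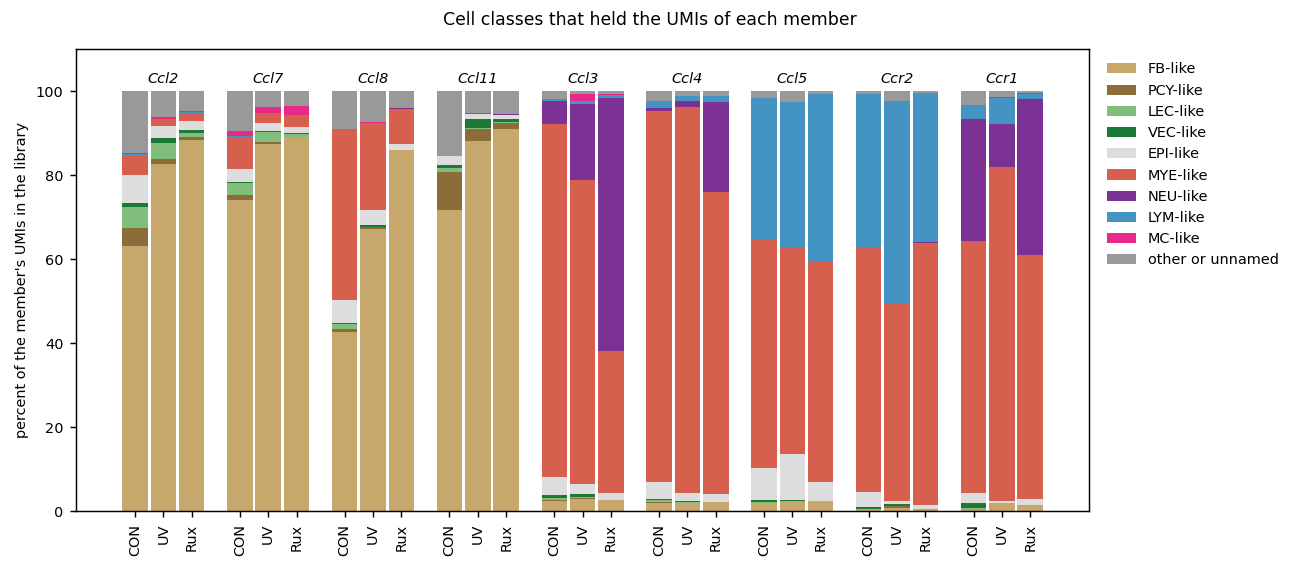
Percent of each member's UMIs in a library that came from each cell class, 1 stacked bar for each library and member. FB-like cells (tan) filled most of the bars of Ccl2, Ccl7 and Ccl11, their part of Ccl8 was 42.8% in CON and 85.9% in Rux, and NEU-like cells (purple) filled 60.3% of the Ccl3 bar in Rux.

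Over all cells together, Ccl2 stood at 552 CPM in CON, 1263 in UV and 2023 in Rux, and Ccl7 at 285, 618 and 982. Ccl8 stood at 24.4, 31.0 and 44.1, Ccl11 at 87.0, 113 and 126, and Ccl5 at 17.6, 35.0 and 49.0. Each of these 5 ligands was therefore lowest in CON and highest in Rux. Ccl3 (11.3, 6.07 and 34.3 CPM) and Ccl4 (50.4, 42.4 and 89.7 CPM) were lowest in UV. Ccr2 stood at 3.97, 5.04 and 9.83 CPM and Ccr1 at 3.11, 3.82 and 16.1. With a 2-fold difference as the mark, 2 of 9 members were higher in UV than in CON, Ccl2 (log2 ratio 1.19, 1.18 to 1.21) and Ccl7 (1.12, 1.10 to 1.13), where 9.93% of all genes tested were. In Rux over UV 3 of 9 were higher, Ccl3 (2.50, 2.39 to 2.62), Ccr1 (2.07, 1.92 to 2.22) and Ccl4 (1.08, 1.03 to 1.13), where 3.16% of all genes were, and 0 of 9 were 2-fold lower in UV over CON (4.08% of all genes) or in Rux over UV (6.2%).

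These differences over all cells combined class sizes with levels within classes. In an alternative added once the data had been seen, the classes were given the weights they had in CON. The UV over CON log2 ratio was 0.41 for Ccl2 and 0.24 for Ccl7. It was -0.34 for Ccl8 and -0.48 for Ccl11, against 0.34 and 0.38 unweighted, and 0.80 for Ccl5 against 0.99. With the weights of UV, the Rux over UV ratio was 0.52 for Ccl3, 0.58 for Ccr1 and -0.14 for Ccl4. In a dissociated tissue, more cells of a type in the skin and more cells of that type released or captured cannot be told apart.

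Within FB-like cells no member with more than trace counts passed 2-fold. Ccl2 was higher in UV than in CON by a log2 ratio of 0.54 (0.52 to 0.55) and Ccl7 by 0.31 (0.29 to 0.33), while Ccl8 was level at -0.05 (-0.15 to 0.04) and Ccl11 lower at -0.37 (-0.41 to -0.33). The 2 of 7 tested members past 2-fold were Ccl3 (-1.66) and Ccl4 (-1.31), both lower, at 1.82 against 0.570 CPM and 6.59 against 2.66, where 5.79% of all genes were as much lower. In Rux over UV, Ccl2 was higher by 0.30 (0.29 to 0.31), Ccl7 by 0.22 (0.21 to 0.24) and Ccl8 by 0.39 (0.32 to 0.46), and Ccl11 was lower at -0.27 (-0.31 to -0.24). The 1 of 8 tested members past 2-fold was Ccl3 (1.86), at 2.10 CPM in Rux, where 2.34% of all genes were as much higher.

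The direction in FB-like cells was not that of most of their subclusters. FB-like cells divided into 13 subclusters, of which 11 had at least 50 cells in both libraries in each contrast. Ccl2 was lower in UV than in CON in 9 of those 11 and higher in 2, with no interval spanning 0, and Ccl7 was lower in 8 and higher in 3. In subcluster 4, led by Gdf10, Ccl2 stood at 8559, 4795 and 7606 CPM in CON, UV and Rux. Subcluster 5, led by Thbs4, gave 6216, 3168 and 5097, and subcluster 0, led by Thbs1, gave 5206, 3268 and 6481. Subcluster 1 was the highest for Ccl2 in UV and Rux, at 6634, 6276 and 9024 CPM.

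Subcluster sizes ran the other way. Subcluster 2, led by Socs3, Gadd45g, Zfp36 and Egr1, held 1146 of 3225 FB-like cells in CON, 404 of 4868 in UV and 19 of 4582 in Rux, and its Ccl2 level was low at 1366 and 995 CPM in CON and UV. With subclusters weighted as in CON, chosen after seeing the data, the UV over CON log2 ratio was -0.46 for Ccl2 and -0.41 for Ccl7. With CON levels kept in each subcluster and only the weights of UV applied, it was 0.94 and 0.75. Leaving out subcluster 2, also chosen after seeing the data, gave 0.33 for Ccl2 and 0.18 for Ccl7. Ccl11 was not higher in UV beyond counting error in any of the 11 and lower in 7, and its weighted ratio was -0.95.

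Immediate-early genes, which respond to tissue dissociation, were summed as well. The 14 genes of that list summed to 22950 CPM in FB-like cells of CON, 10758 in UV and 11837 in Rux, and to 36734, 29624 and 36890 in subcluster 2. Zfp36, Egr1, Atf3, Junb and Fos of the list led subcluster 2, so its high sum follows in part from how it was formed. High sums were not confined to it, with 29044 CPM in subcluster 7 and 22267 in subcluster 1 of CON. In most subclusters the sum was lower in UV than in CON, as in subcluster 1 (7028 CPM in UV). It was higher in subclusters 3 and 5. Of the 14, 9 were past 2-fold lower in UV than in CON in FB-like cells, where 5.79% of all genes were, and their part in the chemokine levels was not tested. Subclusters mostly of 1 library may be that library and not a cell state. Subcluster 10, led by Saa3, Hp and Lcn2, had 0, 22 and 412 cells, with 2552 CPM of Ccl2 in UV and 3536 in Rux.

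In Rux over UV Ccl2 was higher in 9 of 11 subclusters and lower in 2, and Ccl7 higher in 8 and lower in 1. With the weights of UV the log2 ratio was 0.69 for Ccl2 and 0.39 for Ccl7, above the unweighted 0.30 and 0.22. Ccl8 was higher in 2 subclusters, lower in 4 and within counting error in 5, and its weighted ratio was -0.12. Ccl11 was higher in 5, lower in 3 and within counting error in 3, with a weighted ratio of -0.13, so its lower pooled level was not that of most subclusters. Subcluster 8, led by Igfbp2 and Grem1, had the largest Ccl8 level in Rux, at 78.6, 68.9 and 215 CPM.

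**Figure D3:**
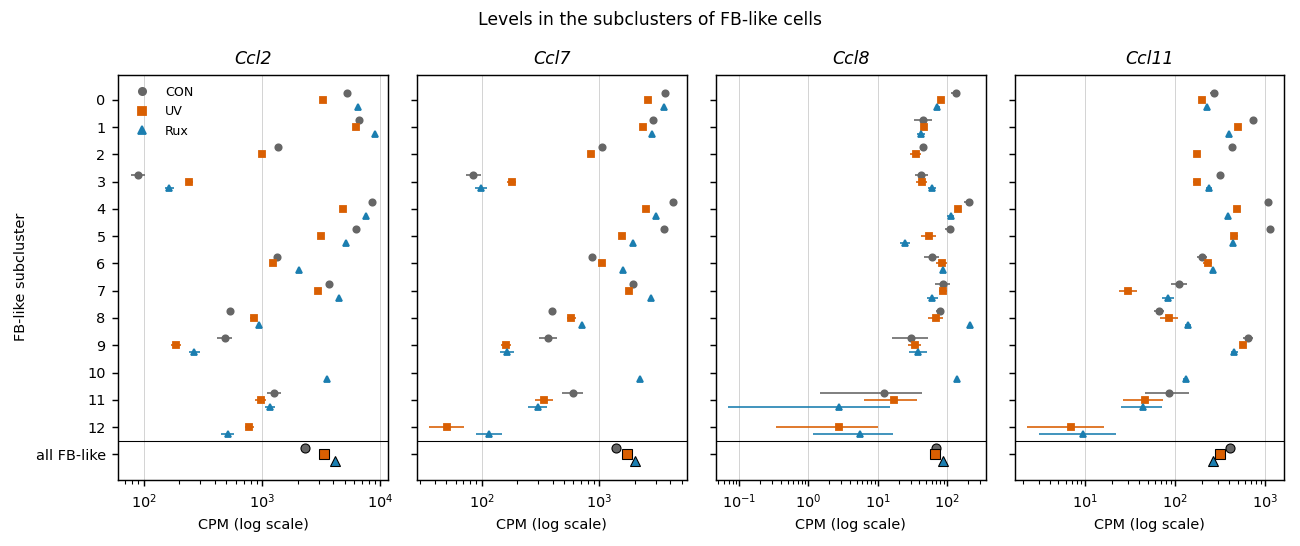
Levels of Ccl2, Ccl7, Ccl8 and Ccl11 as CPM on a log axis in the 13 numbered FB-like subclusters and, below the line, in all FB-like cells together, for CON (grey), UV (orange) and Rux (blue), with exact 95% Poisson intervals and subcluster values of at least 50 cells. For Ccl2 the orange square lay left of the grey circle in most subclusters, as in subcluster 4 (8559 and 4795 CPM), while for all FB-like cells it lay to the right (2294 and 3330 CPM).

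The ligand UMIs were unevenly spread over FB-like cells. The 5% of cells with the most UMIs of Ccl2 held 44.8% of the FB-like Ccl2 UMIs in CON (161 cells), 33.9% in UV (243 cells) and 30.2% in Rux (229 cells). For Ccl7 the shares were 39.8%, 29.4% and 26.7%, and for Ccl8 52.7%, 47.5% and 47.0%. Cells were ranked by UMIs before thinning, so deep cells weigh more, and median depth was 6044, 7286 and 9818 UMIs in CON, UV and Rux. Ccl8 was seen in a small part of the cells, which by itself raises such a share. Ccl2 and Ccl7 tended to be seen in the same cells. After thinning, Ccl7 was seen in 69.2%, 78.8% and 78.0% of FB-like cells with Ccl2 and in 24.7%, 33.7% and 35.8% of those without. Ccl11 showed little of this, at 40.0%, 35.7% and 32.5% of cells with Ccl2 against 33.9%, 31.4% and 31.0% without.

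The PCY-like cluster was led by Myh11, Acta2 and Tagln, and pericytes and contractile smooth muscle cells were not separated in it. The cluster led by Rgs5 and Abcc9 was counted as VEC-like. Ccl2 and Ccl7 of PCY-like cells differed in direction from the FB-like sum. In PCY-like cells (209, 249 and 116) all 4 tested members were past 2-fold lower in UV than in CON, where 3.13% of all genes were. The log2 ratios were -1.61 (-1.70 to -1.52) for Ccl2, -1.31 (-1.54 to -1.09) for Ccl7, -1.97 (-2.15 to -1.80) for Ccl11 and -1.50 (-2.71 to -0.45) for Ccl8, the last from 19.2 against 6.66 CPM. The thinned share of PCY-like cells with Ccl2 was 36.3%, 39.1% and 38.5%, so it did not follow the CPM. The UV over CON ratios were -1.61 for Ccl2 and -1.94 for Ccl11 with the cell richest in each member left out of each library, an alternative added once the data had been seen and used below as well. In Rux Ccl2 stood 0.92 (0.81 to 1.02) above UV. There 1 Rux cell held 331 of the 1594 Ccl2 UMIs, and the ratio was 0.77 (0.65 to 0.88) without the richest cells.

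In LEC-like cells (433, 302 and 144) Ccl2 stood at 608, 1257 and 985 CPM and Ccl7 at 184, 395 and 335. In Rux 1 cell held 642 of the 2308 Ccl2 UMIs, and 1 cell held 168 of the 785 Ccl7 UMIs. Without the richest cells the Rux over UV ratio was -0.69 (-0.78 to -0.62) for Ccl2, against -0.35 with them. For Ccl7 it was -0.40 (-0.54 to -0.26), against -0.24. In UV over CON these 2 of 5 tested members were past 2-fold higher, at log2 ratios of 1.05 (0.99 to 1.11) and 1.10 (1.00 to 1.21), where 4.43% of all genes were. The 3 others, Ccl8, Ccl11 and Ccl4, were past 2-fold lower at 16.8 CPM or less in CON, where 2.97% were. Of the 104 Ccl11 UMIs in CON, 76 were in 1 cell, and without the richest cells the ratio was -0.22 (-1.20 to 0.68) for Ccl11 and -1.03 (-2.57 to 0.19) for Ccl8. In VEC-like cells Ccl2 stood at 244, 366 and 842 CPM. Few cells held most of it: 24 of 481 held 78.0% of the Ccl2 UMIs in CON, 32 of 649 held 66.3% in UV and 12 of 243 held 63.5% in Rux. Without the richest cells its Rux over UV ratio was 1.12 (1.02 to 1.21). Ccl2 (1.20, 1.11 to 1.29) was the 1 of 4 tested members past 2-fold higher in Rux over UV, where 1.46% of all genes were. In UV over CON 1 of 6 was past 2-fold lower, Ccl4 at 8.79 against 2.61 CPM, where 3.06% of all genes were. There 15 of 30 Ccl4 UMIs in CON were in 1 cell, and the ratio without the richest cells was -0.86 (-2.06 to 0.30). EPI-like cells had low levels of the leukocyte members, though they held 10.9% of all Ccl5 UMIs in UV (446 of 4105). In EPI-like cells 8 members were tested in each contrast. In UV over CON Ccl5 (2.01, and 1.96 without the richest cells) was past 2-fold higher and Ccl3 and Ccr2 lower, where 9.13% and 3.72% of all genes were. In Rux over UV Ccl3, Ccl4 and Ccr1 were higher, where 2.72% were. Ccl3 had 62 UMIs in Rux and 17 in UV. Ccl4 had 180 and 91, with 47 of the 180 in 1 cell. The same 3 members were past 2-fold higher over all cells. Whether these UMIs came from the EPI-like cells themselves was not tested. Of the 28 Ccr1 UMIs of EPI-like cells in Rux, 16 were in 1 cell.

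**Figure D4:**
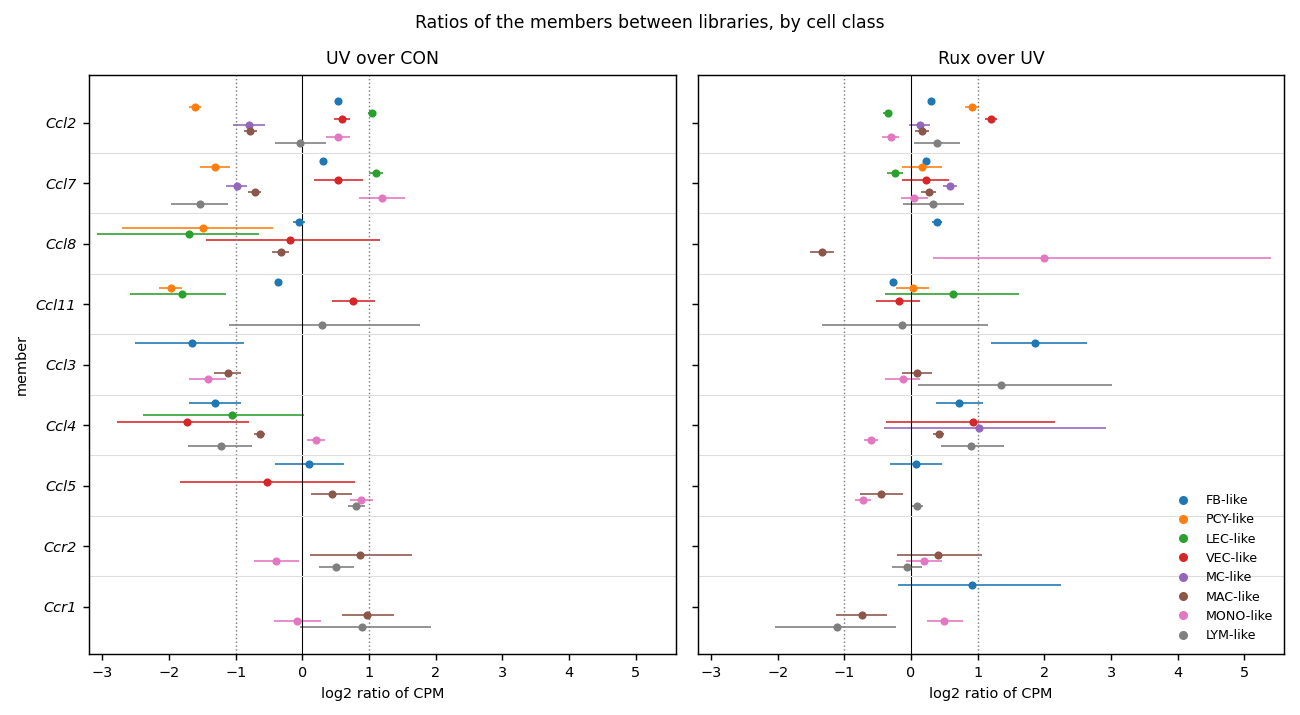
Log2 ratios of CPM for the 9 members, UV over CON on the left and Rux over UV on the right, in 8 cell classes shown by colour, with 95% intervals for counting error and dotted lines at a 2-fold difference. Only members with at least 20 UMIs in the 2 libraries together are drawn. On the left Ccl2 ran from -1.61 in PCY-like to 1.05 in LEC-like cells, and on the right Ccl8 of MAC-like cells lay at -1.33.

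In MYE-like cells most ligands were lower in UV than in CON. The log2 ratios were -0.82 (-0.89 to -0.74) for Ccl2, -0.89 (-0.98 to -0.80) for Ccl7, -0.95 (-1.08 to -0.82) for Ccl8 and -0.53 (-0.58 to -0.47) for Ccl4. Ccl3, at -1.44 (-1.59 to -1.29), was the 1 of 9 tested members past 2-fold, where 6.02% of all genes were as much lower. Ccl5 was higher at 0.50 (0.40 to 0.61). The makeup of the class differed too, with 113, 65 and 67 MAC-like and 70, 86 and 241 MONO-like cells in CON, UV and Rux.

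The myeloid subtypes separated the same ligands. In MAC-like cells Ccl2 was at -0.78 (-0.88 to -0.68), Ccl7 at -0.72 (-0.82 to -0.61) and Ccl3 at -1.12 (-1.33 to -0.92) in UV over CON. Ccl3 was the 1 of 8 tested members past 2-fold lower there, where 5.43% of all genes were. In MONO-like cells Ccl2 was higher at 0.53 (0.35 to 0.71) and Ccl7 at 1.19 (0.85 to 1.54), from 184 to 421 CPM. A single CON cell held 204 of the 408 Ccl2 UMIs, and without the richest cells the ratios were 1.22 (0.99 to 1.46) for Ccl2, 1.49 for Ccl7 and 1.14 for Ccl5. Ccl3 was lower in MONO-like cells too, at -1.42 (-1.70 to -1.15). Ccl7 and Ccl3 were the 2 of 7 tested members past 2-fold, 1 in each direction, where 5.12% of all genes were higher and 5.88% lower.

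Among the 9 members, Ccl8 had the largest difference between Rux and UV in MYE-like and in MAC-like cells. In MYE-like cells its level was 717 CPM in CON, 372 in UV and 106 in Rux, a log2 ratio of -1.81 (-1.99 to -1.64) in Rux over UV. It was the 1 of 9 members past 2-fold, where 6.15% of all genes were as much lower. In MAC-like cells the ratio was -1.33 (-1.52 to -1.15), and it was again the 1 of 8 tested members past 2-fold lower, where 5.19% were. After thinning, Ccl8 was seen in 62.9% (52.5 to 72.5) of MAC-like cells of CON, 62.5% (48.5 to 75.1) of UV and 35.5% (23.7 to 48.7) of Rux. In Rux the 22 MYE-like cells with the most Ccl8 held 92.8% of the Ccl8 UMIs of the class. Without the richest cells the Rux over UV ratio was -2.07 in MYE-like and -1.63 in MAC-like cells. Ccl2 (0.17, 0.06 to 0.27) and Ccl7 (0.26, 0.15 to 0.37) of MAC-like cells were slightly higher in Rux. In MONO-like cells Ccl8 was the 1 of 8 tested members past 2-fold, higher in Rux (2.00, 0.33 to 5.40) but from 3.21 and 15.8 CPM, where 4.42% of all genes were as much higher. That ratio rested on 33 UMIs in Rux, 13 of them in 1 cell, and 2 in UV. Without the richest cells its interval was -0.09 to 7.93.

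The 250 bases before the RefSeq start of Ccl8 (GRCm38.p6, chr11:82114935-82115184, plus strand) are printed here because, of the 9 members, its level in macrophages differed most between the irradiated libraries, with a TATA box match in capitals.
Ccl8: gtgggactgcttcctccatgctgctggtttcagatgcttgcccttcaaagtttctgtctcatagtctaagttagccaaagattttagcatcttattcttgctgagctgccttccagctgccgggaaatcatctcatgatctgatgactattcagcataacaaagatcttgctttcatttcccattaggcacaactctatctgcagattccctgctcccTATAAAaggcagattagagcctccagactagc
TATAAA, searched on both strands like the motifs below, was found 32 bases before the start of Ccl8 and in 12.4% of all 32851 promoters. The letters TTCNNNGAA of the STAT site were in none of the 4 member promoters searched (Ccl8, Ccl3, Ccr1 and Ccr2) and in 7.02% of all promoters. The AP-1 letters TGANTCA (6.75% of all promoters) were in none of the 4 either, nor were an NF-kB motif (1.41% of all promoters) and an ISRE motif (2.98%).

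In Rux, NEU-like cells held 60.3% of the Ccl3, 21.3% of the Ccl4 and 37.3% of the Ccr1 UMIs. MYE-like cells held 33.9%, 72.0% and 58.0% of them. NEU-like cells numbered 50, 21 and 222 in CON, UV and Rux. Their Ccl3 level was 686 CPM in CON and 3220 in Rux, and their Ccl4 level 296 and 2976. Thinned shares with Ccl3 were 43.2% in CON and 73.3% in Rux, and with Ccr1 88.6% and 72.8%. With 21 cells in UV, no ratio to UV was formed. Neutrophil markers summed to 72.0, 27.3 and 625 CPM over all cells, and monocyte markers to 270, 414 and 559. The monocyte list (Ly6c2, Plac8, Chil3, Vcan and Ms4a4c) was summed over every class, and MONO-like cells numbered only 70, 86 and 241. Which classes held that sum was not separated, so it is no measure of monocytes.

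In LYM-like cells (253, 241 and 361) Ccl5 stood at 531, 930 and 989 CPM and Ccr2 at 130, 185 and 177. In UV over CON the log2 ratio of Ccl5 was 0.81 (0.68 to 0.93) and that of Ccr2 0.51 (0.24 to 0.78). The 2 of 7 tested members past 2-fold were Ccl7 (-1.53) and Ccl4 (-1.22), both lower, where 6.65% of all genes were. The Ccl7 value rested on 1 CON cell with 139 of 186 UMIs, and without the richest cells the ratio was 0.38 (-0.19 to 0.96). Rux over UV gave 0.09 (-0.01 to 0.18) for Ccl5 and -0.06 (-0.28 to 0.16) for Ccr2, intervals that include no difference. Ccl3 (1.35) was past 2-fold higher and Ccr1 (-1.11) lower in Rux over UV, both at 18.1 CPM or less, where 1.52% and 3.38% of all genes were, and Ccl3 stood at 0.93 without the richest cells. T cell makeup differed, since a γδ T-like cluster led by Zmat4 had 89, 3 and 1 cells. NK-like cells, the highest for Ccl5, numbered 14, 30 and 33. Of the LYM-like Ccl5 UMIs, 13 of 253 cells held 74.6% in CON and 12 of 241 held 58.8% in UV. In αβ T-like cells Ccl5 stood at 625, 970 and 904 CPM, but Ccr2 was level at 115, 109 and 107. Makeup and level were therefore not separated for the LYM-like ratios.

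In MC-like cells Ccl2 (-0.80, -1.03 to -0.56) and Ccl7 (-0.99, -1.14 to -0.83) were lower in UV than in CON, just inside 2-fold. In Rux over UV Ccl7 was 0.59 (0.48 to 0.69) higher. The 1 of 3 tested members past 2-fold was Ccl4 (1.02, -0.40 to 2.92), at 25.3 CPM or less in both, where 3.47% of all genes were as much higher. Of its 16 UMIs in Rux, 14 were in 1 cell, and without the richest cells the ratio was -1.05 (-4.73 to 1.98). Within immune cluster 6, led by Tpsg1 with 41, 50 and 61 cells and named MC-like on its own, Ccl7 stood at 8710, 5391 and 8081 CPM and Ccl2 at 2401, 2094 and 2647. Ccl7 was therefore lowest in UV in that cluster as well, though its 41 CON cells lie below the minimum of 50 set for ratios. Mast cell makeup differed between libraries. A second MC-like cluster, led by Rnf180, had 4, 50 and 55 cells. An unnamed cluster that scored highest for mast cell markers had 16, 69 and 92. Makeup and level were therefore not separated for the MC-like ratios.

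An unnamed cluster between the macrophage and monocyte markers, led by Mmp13, Arg1 and Mmp12, had 0, 17 and 65 cells. It held 6425 CPM of Ccl4 in UV and 1933 in Rux, 1210 and 777 of Ccl2, and 284 and 400 of Ccr1, with Ccr2 at 6.61 and 11.7. A cluster led by Cd207 and MHC class II genes (77, 53 and 62 cells) held 969, 797 and 594 CPM of Ccl5 and 190, 181 and 122 of Ccr2.

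The other CC ligands were compared from a list of 13. Over all cells 2 were past 2-fold higher and 3 lower in UV over CON, with a median log2 ratio of -0.17 against -0.02 over all genes, and 3 were higher and 2 lower in Rux over UV (0.15 against -0.11). The shares over all genes, for this and the next lists over all cells, were 9.93% higher and 4.08% lower in UV over CON and 3.16% and 6.2% in Rux over UV. In MYE-like cells Ccl12, a mouse ligand of Ccr2, stood at 227, 41.3 and 9.12 CPM, and Ccl24, another eotaxin, at 104, 417 and 17.3. Both were thus lowest in Rux, as Ccl8 was. Ccl6 and Ccl9, at 632, 589 and 832 and at 678, 592 and 822 CPM, were highest there. MAC-like cells numbered 113, 65 and 67 and MYE-like cells 277, 240 and 449, and Ccl12 was a leading gene of the MAC-like cluster. Makeup and level were therefore not separated for Ccl12. Ccl24 was instead a leading gene of the unnamed cluster led by Mmp13, which had 0, 17 and 65 cells. That cluster was largest in Rux, where the MYE-like level of Ccl24 was lowest, and levels by subtype are not given here. In FB-like cells Ccl19, a ligand of Ccr7, stood at 223, 45.0 and 51.2 CPM. Ccl19, Ccl21a and Ccl27a have several near-identical entries, so their counts are uncertain.

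Among 9 other CC receptors, 8 were tested in UV over CON over all cells, with 1 past 2-fold higher and 2 lower against 9.93% and 4.08% of all genes. In Rux over UV 2 of 9 were higher, Ccr3 and Ccrl2, against 3.16% of all genes, and none was lower. Ccr3, the receptor for Ccl11, stood at only 0.0568, 0.0852 and 0.259 CPM over all cells and at 14.8 CPM in NEU-like cells of Rux. Of 4 atypical receptors, which take up chemokines without migration, Ackr3 was past 2-fold higher in UV over CON over all cells and none passed in Rux over UV.

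Cytokines that are known to induce these ligands were taken from a list of 10. Over all cells 4 were past 2-fold higher in UV over CON (Ifng, Il4, Il13 and Il33) against 9.93% of all genes, and 3 were higher and 1 lower in Rux over UV against 3.16% and 6.2%. Il1b stood at 52.6, 44.2 and 255 CPM over all cells and at 3099, 2237 and 5818 CPM in MYE-like cells. Il6, by contrast, stood at 1162, 1191 and 521 CPM in FB-like cells. Of 9 NF-kB target genes, 1 was lower in FB-like cells of UV over CON (5.79% of all genes) and 1 higher in Rux over UV (2.34%), in both cases Tnfaip3, at 296, 131 and 374 CPM.

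Of 9 JAK-STAT target genes, Socs1 and Socs3, feedback inhibitors of the pathway, were past 2-fold lower in FB-like cells of Rux over UV, where 7.18% of all genes were. Socs3 stood at 935, 427 and 129 CPM and Socs1 at 101, 50.6 and 18.5. Ccl2 and Ccl7, also summed over all FB-like cells, stood highest in Rux. In MYE-like cells none of the 9 was past 2-fold in Rux over UV, with a median of -0.45 against 0.00 over all genes. The sum of the list in FB-like cells was 3089, 1809 and 1344 CPM. This pooled sum combined subcluster sizes with levels within subclusters. Subcluster 2, with Socs3 and Irf1 of the list among its leading genes, summed to 4720 CPM in CON and 3904 in UV. Within each subcluster the sum was lower in Rux than in UV, by unequal amounts. In UV and Rux it was 1549 and 1498 CPM in subcluster 0 and 1453 and 810 in subcluster 3. Socs1 and Socs3 are given only for all FB-like cells together.

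Genes with the pattern most like each member were ranked by Pearson correlation of log2(CPM + 1) over 38 pairs of class and library from 16 classes, as a description without a test. The 3 libraries of a class share its identity and the pairs of a library share its depth. Ccl2 was closest to Gm17268 (0.926), Dnajb4 (0.867) and Ccl7 (0.866), and Ccl11 to the stromal genes Ddr2 (0.912), Tbx15 (0.893) and Prrx1 (0.887). Ccl8 was closest to Cd209f (0.830), Ccl3 to Gm40645 (0.959) and C5ar1 (0.957), and Ccl4 to Lair1 (0.933) and Ccl3 (0.929). Ccl5 was closest to Ms4a6b (0.950). Ccr1 was closest to Pik3ap1 (0.970), and Ccr2 was close to Ifi209 (0.956) and Ms4a6b (0.945).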

How the data were processed

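The deposited files were matrices of raw UMI counts, 1 per library, which the authors made with Cell Ranger (6.1.2 in the submitters' processing notes, 7.0.0 in the matrix headers) on mm10; the count files carry no normalization. Barcodes numbered 13170, 12411 and 11287 and UMIs 165337289, 133972374 and 131570327 in CON, UV and Rux. Cells below 200 genes or above 10% mitochondrial UMIs were dropped, and the 1269, 1128 and 923 highest Scrublet scores (scanpy 1.11.5; 0.8% per 1000 barcodes, since its own threshold marked 0, 0 and 234 cells) were removed. Cells were clustered in Seurat 5.3.0 (2000 variable genes, CC genes left out, 30 components, resolution 1.5; subclusters 20 components, resolution 1.0 for immune and 0.5 for FB-like cells). Clusters were named from at least 3 markers seen in 10% of cells and a minimum score of 2, or 4 for immune clusters. Those minima were set after the clusters were seen. UMIs were summed per class and library. Intervals are exact Poisson for CPM, Clopper-Pearson for shares and an exact binomial split for ratios, at 95%. Ratios added 0.5 UMI to each sum, and genes with at least 20 UMIs in both libraries together and classes with at least 50 cells in each were tested against a 2-fold mark. With 1 library per condition there was no test. Named genes were the members, the genes of the lists, class markers, the leading genes of a subcluster and the 3 genes most like each member. The rule for the members uses symbols only, but the set of 9 and the gene lists were proposed with earlier results of these data known. The ratio and interval code was tested on simulated counts. Gene positions came from GENCODE M21. Promoters were taken from RefSeq, which matched 4 of the 9 members. Some items are not reported here.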

Additional observations from a re-analysis of the deposited data

Results flagged for a closer look

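Among the main cell classes, with MAC-like and MONO-like cells not searched on their own, the same contrast gave opposite 2-fold differences for 3 members. With 1 library per condition these differences between classes were not tested. For Ccl2, UV over CON, the log2 ratio was 1.05 in LEC-like cells and -1.61 in PCY-like cells. For Ccl7 in the same contrast it was 1.10 in LEC-like cells, against -1.31 in PCY-like cells and -1.53 in LYM-like cells, the last from 63 and 186 UMIs, of which 139 were in 1 CON cell. With the cell richest in Ccl7 left out of each library, the LYM-like ratio was 0.38, and the LEC-like and PCY-like ratios of Ccl7 were 1.00 and -1.29. For Ccr1, Rux over UV, it was 3.80 in EPI-like cells, from 28 UMIs, 16 of them in 1 cell, and 2 UMIs, and -1.11 in LYM-like cells, from 19 and 28 UMIs. Ccr1 of both classes lay far below its level in NEU-like cells. Outside that search, the log2 ratio of Ccl8, Rux over UV, was -1.33 in MAC-like cells. It was 2.00 in MONO-like cells, from 33 and 2 UMIs. For Ccl7, UV over CON, the ratio was 1.19 in MONO-like cells.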

How the results depend on the processing

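With 1 library per condition no library could be left out, and no paired analysis was possible because each condition had only 1 library and the result comes from no test. In FB-like cells, UV over CON, the count of 2 members past 2-fold became 3 with a minimum of 5 UMIs and was 2 under the other 8 alternatives. In Rux over UV the count of 1 became 2 at clustering resolution 0.8, with CC genes kept in the clustering and with equal weight per cell. In MYE-like cells, UV over CON, the count of 1 became 3 under the strict filter on cells, and in Rux over UV it was 1 under all 9.

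Of 53 log2 ratios in 4 classes, the sign was kept in 53 when haemoglobin, keratin and mitochondrial genes were left out, in 51 under median-of-ratios scaling and the strict filter, and in 43 without doublet removal. Ratios whose interval lay on 1 side of 0 and whose sign turned were Ccl11 in FB-like cells, Rux over UV, without doublet removal (0.023), Ccl7 in MYE-like cells, Rux over UV, with equal weight per cell (0.033), Ccl7 (0.36) and Ccl2 (-0.47) in LYM-like cells, UV over CON and Rux over UV, without doublet removal, and Ccl4 in LYM-like cells with CC genes kept (0.43 and -0.65). With FB subclusters weighted as in the denominator library, chosen after seeing the data, Ccl2 (-0.46) and Ccl7 (-0.41), UV over CON, and Ccl8 (-0.12), Rux over UV, turned. With the cell richest in a member left out of each library, also added once the data had been seen, the sign was kept in 47 of 53, and Ccl7 in LYM-like cells, UV over CON, turned to 0.38. The cause was not tested except where the weights or the cell left out make the difference.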
